A study of Mus musculus with 75 samples.

Results

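The genes described here are 8 transcription factors that mark the primitive streak and the first mesoderm: T (Brachyury), Mixl1, Eomes, Gsc, Evx1, Mesp1, Tbx6 and Lhx1. They were chosen by symbol in the receptor knockout and receptor overexpression tables, which list 52535 genes each, and by Ensembl identifier in the enhancer deletion table, which lists 52636. All 8 were found in each of the 3 tables.

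The primitive streak is the site where cells of the epiblast leave the epithelium and become mesoderm and definitive endoderm. Wnt3 and Nodal signals induce it, and the factors above are among their first targets: Eomes and T open the programme, Mesp1 and Tbx6 follow in cardiac and paraxial mesoderm, and Gsc and Lhx1 mark the anterior streak. Retinoic acid (RA) patterns the trunk once mesoderm has formed, and the Cyp26 enzymes, which oxidise RA, keep it out of the streak and the tail bud. Eomes is also a gene of trophoblast and of visceral endoderm, and Lhx1 is also a gene of visceral endoderm.

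Gene expression was measured by RNA-seq of total RNA in 23 libraries of mouse E14 embryonic stem cells. All of them had been treated with 2 µM RA for 24 h after removal of LIF and of the MEK and GSK inhibitors (2i). The receptor knockout table held cells without Rarα (Rarα-KO), without Rxrα (Rxrα-KO) or without both (RARX-DKO), and WT cells (n = 2 each). The overexpression table held cells that overexpress Rarα (Rarα-OE) or Rxrα (Rxrα-OE), and a control labelled V-OE (n = 2 each). The enhancer table held cells with the enhancer Cyp26-E1 deleted (Cyp26-E1-KO), cells with Cyp26-E2 deleted and their own WT (n = 3 each). No RNA library was made without RA, so the levels describe RA-treated cells only. The labels do not say how many clones each line stands for, what the vector was, or whether replicates were separate cultures, so p-values measure the spread between these libraries only. Column codes of the enhancer table were matched to the deletions through 4C-seq libraries with like codes, whose reads pile up beside Cyp26a1 and Cyp26c1 for Cyp26-E1 and beside Cyp26b1 for Cyp26-E2. RNA titles of Cyp26-E2 lack the word KO and were read as the deletion.

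Libraries held 7408691 to 13052102 counts in the knockout table, 7835519 to 11453063 in the overexpression table and 28397794 to 33601996 in the enhancer table. The targeted genes moved as the labels say, with remaining reads. Rara averaged 4.86 CPM (counts scaled to one common library size) in Rarα-KO and 6.05 CPM in RARX-DKO, against 104 CPM in WT. Rxra averaged 17.2 CPM in Rxrα-KO and 20.6 CPM in RARX-DKO, against 42.1 CPM in WT, and its fall in RARX-DKO missed the threshold (adjusted p = 0.0654, edgeR quasi-likelihood test). Rara averaged 108 CPM in Rarα-OE against 52.0 CPM in V-OE, and Rxra 203 CPM in Rxrα-OE against 44.3 CPM in V-OE. In Cyp26-E1-KO cells Cyp26a1 and Cyp26c1 fell (log2 fold changes -2.93 ± 0.17 and -3.36 ± 0.25, SE), and in cells without Cyp26-E2 it was Cyp26b1 (-2.18 ± 0.074).

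Most of these factors were near the limit of detection. In bulk RNA a lower value can mean fewer expressing cells or less RNA per cell, and these cannot be told apart. Per kb of exon, Eomes was the highest member in all 3 controls, with 2.97 ± 0.15 CPM per kb in the WT of the knockouts, 4.13 ± 0.041 in V-OE (SD, n = 2 each) and 5.20 ± 0.40 in the WT of the enhancer table (SD, n = 3). In both WT groups the next were Tbx6 and T, which differed by less than their spread: Tbx6 had 0.600 ± 0.31 and T 0.584 ± 0.075 CPM per kb in the WT of the knockouts (SD, n = 2), and 0.621 ± 0.29 and 0.759 ± 0.14 CPM per kb in the WT of the enhancer table (SD, n = 3). In V-OE Tbx6 had 1.05 ± 0.21, Gsc 0.611 ± 0.73 and T 0.561 ± 0.20 CPM per kb (SD, n = 2), and the last pair overlapped. Evx1 and Mesp1 had 0 to 14 counts in any library and passed the filter on low counts in no table. Gsc had 0 to 31 counts. The tested members numbered 4 in the knockout table (T, Mixl1, Eomes, Tbx6) and 6 in each of the other tables (with Gsc and Lhx1).

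**Figure D1:**
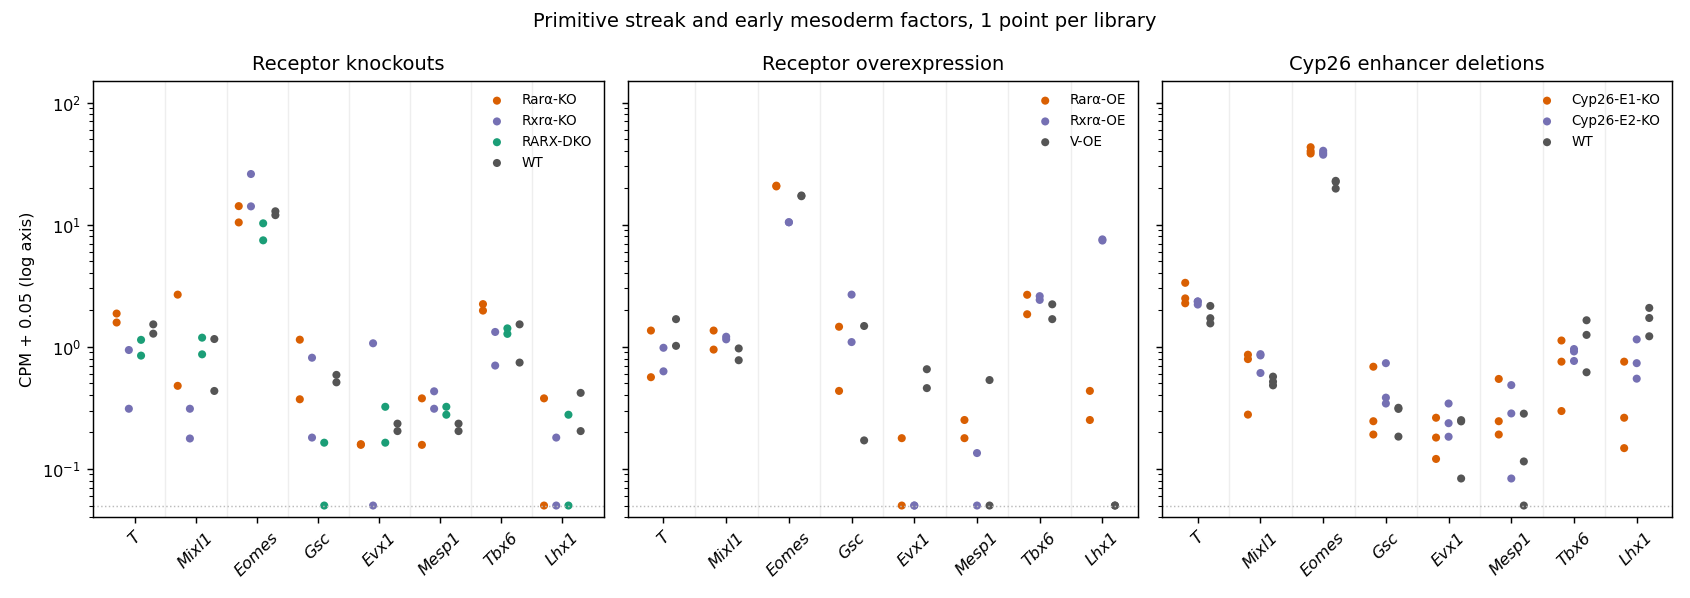
CPM of each of the 8 factors, with 0.05 added, on a log axis, in the receptor knockout, overexpression and enhancer deletion tables. Each point is 1 library and colours mark the groups, with Eomes highest in every panel and Lhx1 of Rxrα-OE (7.35 and 7.52 CPM) far above V-OE, where it is at 0 (dotted line).

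The 300-base promoter windows of Lhx1 and Eomes are shown because these were the members that passed the test. The window of Lhx1 (chr11:84525485-84525784, minus strand) runs from 250 bases before to 50 after its start, on GRCm38.p6 as given by RefSeq. The long noncoding RNA Lhx1os starts 125 bp away on the opposite strand, so the window holds both starts. It is rich in CpG (31 CpG, 65.7% GC, against medians of 7 and 52.7% over 32851 promoters). The window of Eomes (chr9:118477939-118478238, plus strand) has 10 CpG and 47.3% GC. Capitals mark the motif CAGAC, the letters SMAD proteins bind, and no other searched motif was present in either window.
Lhx1: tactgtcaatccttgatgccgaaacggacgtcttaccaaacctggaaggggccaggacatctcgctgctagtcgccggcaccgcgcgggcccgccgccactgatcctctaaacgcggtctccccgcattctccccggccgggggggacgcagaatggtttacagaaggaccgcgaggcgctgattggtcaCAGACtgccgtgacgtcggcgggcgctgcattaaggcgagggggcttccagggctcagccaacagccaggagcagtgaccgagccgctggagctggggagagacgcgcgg
Eomes: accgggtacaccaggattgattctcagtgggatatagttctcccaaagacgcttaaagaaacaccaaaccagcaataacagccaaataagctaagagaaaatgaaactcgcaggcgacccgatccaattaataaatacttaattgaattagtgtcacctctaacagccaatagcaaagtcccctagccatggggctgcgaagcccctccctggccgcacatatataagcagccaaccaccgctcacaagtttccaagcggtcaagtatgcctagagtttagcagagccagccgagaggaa

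The motifs searched on both strands were AGGTCA and AGTTCA (bound by retinoic acid and retinoid X receptors), a direct repeat of either with 5 bases between, AGGTGT (T-box factors), CTTTGAT (LEF and TCF factors), AATNCACA (FOXH1) and CAGAC (SMAD proteins). RefSeq windows were available for 7 members, all but Mixl1. AGTTCA was in 2 of the 7 (T and Gsc), and in 14.0% of all promoters. AGGTGT was in 3 (T, Evx1 and Mesp1), against 13.7%, CTTTGAT in 1 (Mesp1), against 3.73%, and CAGAC in 4 (Evx1, Mesp1, Tbx6 and Lhx1), against 49.6%. AGGTCA (16.3% of all promoters), the direct repeat (0.0396%) and AATNCACA (3.60%) were in none of the 7 windows.

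Eomes, the T-box factor that opens the streak programme (chromosome 9, positions 118478212 to 118486132 on mm10), fell in Rxrα-OE and rose in cells without either Cyp26 enhancer. In the overexpression table it had 20.8 and 20.5 CPM in Rarα-OE and 10.4 and 10.4 CPM in Rxrα-OE, against 17.3 and 17.0 CPM in V-OE. The 3 groups did not overlap: both Rxrα-OE libraries were lowest and both Rarα-OE libraries highest. Against V-OE, the log2 fold change in Rxrα-OE was -0.72 ± 0.15 (SE, adjusted p = 5.26e-05, edgeR quasi-likelihood test), and against Rarα-OE it was -0.99 ± 0.15 (adjusted p = 1.53e-07). Both comparisons share the Rxrα-OE libraries. In Rarα-OE against V-OE the difference of 0.27 ± 0.14 did not pass (adjusted p = 0.158).

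Those comparisons called many genes. In Rxrα-OE against V-OE 60.2% of 16914 tested genes passed, 30.9% up and 29.3% down, and the members gave 1 rise (Lhx1) and 1 fall (Eomes) among 6 tested. Rxrα-OE against Rarα-OE called 47.2% of genes, 23.8% up and 23.4% down, and again Lhx1 as a rise and Eomes as a fall, and Rarα-OE against V-OE called 28.6%, of which 14.7% up and 13.9% down, and 1 member, Lhx1, which rose. The rises of Lhx1 in Rxrα-OE were fixed by the filter, which Lhx1 passed only through those libraries, so they count for nothing beside these shares. Sums of cell type markers differed from V-OE in both overexpression groups. The 8 embryonic stem cell markers summed to 2500 to 2534 CPM in Rxrα-OE against 8094 to 8311 CPM in V-OE. The 10 extraembryonic endoderm markers, all detected, summed to 1277 to 1282 CPM in Rxrα-OE against 401 to 432 CPM in V-OE. The 10 trophoblast markers (Tpbpa at 0 in every library) summed to 633 to 664 against 94.3 to 97.8 CPM. Of the 8 trophoblast markers tested, Esx1, Krt7, Krt8 and Krt18 rose and Tfap2a fell, and only 4 log2 fold changes were above 0. The 8 neuroectoderm markers summed to 25.6 to 27.2 CPM in Rxrα-OE against 70.1 to 80.1 CPM in V-OE. Of the 4 tested, Nes and Pax3 rose and Sox1 and Tubb3 fell, and Pax3 passed the filter only through Rxrα-OE. The 8 fibroblast markers, of which 2 were tested and Col1a1 rose, summed to 9.37 to 9.72 against 6.52 to 8.16 CPM. In Rarα-OE, where Eomes did not pass, extraembryonic endoderm markers summed to 1033 to 1046 CPM and trophoblast markers to 556 to 605 CPM. There the stem cell sum was 6888 to 6915 CPM, the neuroectoderm sum 36.5 to 40.9 CPM and the fibroblast sum 10.1 to 11.2 CPM. The part of these cells in the Eomes result was not tested.

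In the enhancer table Eomes had 38.2, 43.0 and 39.9 CPM in Cyp26-E1-KO and 38.6, 37.3 and 40.2 CPM without Cyp26-E2, against 19.7, 22.8 and 22.3 CPM in WT. Every deletion library lay above every WT library, and the deletions overlapped each other. The log2 fold change was 0.90 ± 0.087 in Cyp26-E1-KO (adjusted p = 4.82e-06, edgeR quasi-likelihood test) and 0.84 ± 0.087 without Cyp26-E2 (adjusted p = 2.14e-05). The 2 comparisons share the WT libraries. Between the deletions, Cyp26-E2 against Cyp26-E1, it was -0.061 ± 0.086 (adjusted p = 0.773), and no member passed in that comparison, in which 4.49% of genes did.

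In Cyp26-E1-KO 25.3% of 18768 tested genes passed, 13.1% up and 12.1% down, and of the 6 members tested Eomes rose and Lhx1 fell. Without Cyp26-E2 17.5% of genes passed, 9.28% up and 8.2% down, and of the 6 members Eomes rose. At these shares, 1 or 2 calls among 6 members are not far from the background of all genes. Extraembryonic endoderm markers summed to 771 to 796 CPM in Cyp26-E1-KO and 839 to 866 CPM without Cyp26-E2, against 645 to 683 CPM in WT. Of these, Sparc, Dab2, Col4a1 and Sox7 rose and Gata4, Cubn and Foxa2 fell in Cyp26-E1-KO, while 7 rose without Cyp26-E2. Trophoblast markers (9 of 10 detected) summed to 109 to 114 CPM in Cyp26-E1-KO and 75.5 to 85.1 CPM without Cyp26-E2, against 67.0 to 72.1 CPM in WT. The part of these cells in the Eomes result was not tested. Stem cell markers summed to 2322 to 3374 CPM in Cyp26-E1-KO and 2848 to 3035 CPM without Cyp26-E2, against 3364 to 3470 CPM in WT. Klf4 and Esrrb rose and Nanog, Zfp42 and Sox2 fell in Cyp26-E1-KO, and the last 3 also fell without Cyp26-E2. Fibroblast markers summed to 13.9 to 19.1 CPM in Cyp26-E1-KO and 11.0 to 16.6 CPM without Cyp26-E2, against 8.40 to 9.94 CPM in WT. Neuroectoderm markers summed to 82.4 to 86.6 CPM in Cyp26-E1-KO and 66.2 to 74.2 CPM without Cyp26-E2, against 76.6 to 77.1 CPM in WT. Of them Pax3, Pax6 and Tubb3 rose and Sox1 fell in Cyp26-E1-KO, and Pax3 rose and Sox1 fell without Cyp26-E2. The sum of the stem cell markers was lowest in Cyp26-E1-KO replicate 2 (2322 CPM, with 3374 and 3214 CPM in replicates 1 and 3). Without that library the log2 fold change of Eomes in Cyp26-E1-KO was 0.85 ± 0.084 (adjusted p = 9.26e-10, edgeR quasi-likelihood test). The part of stem cells in the Eomes result was not tested either.

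**Figure D2:**
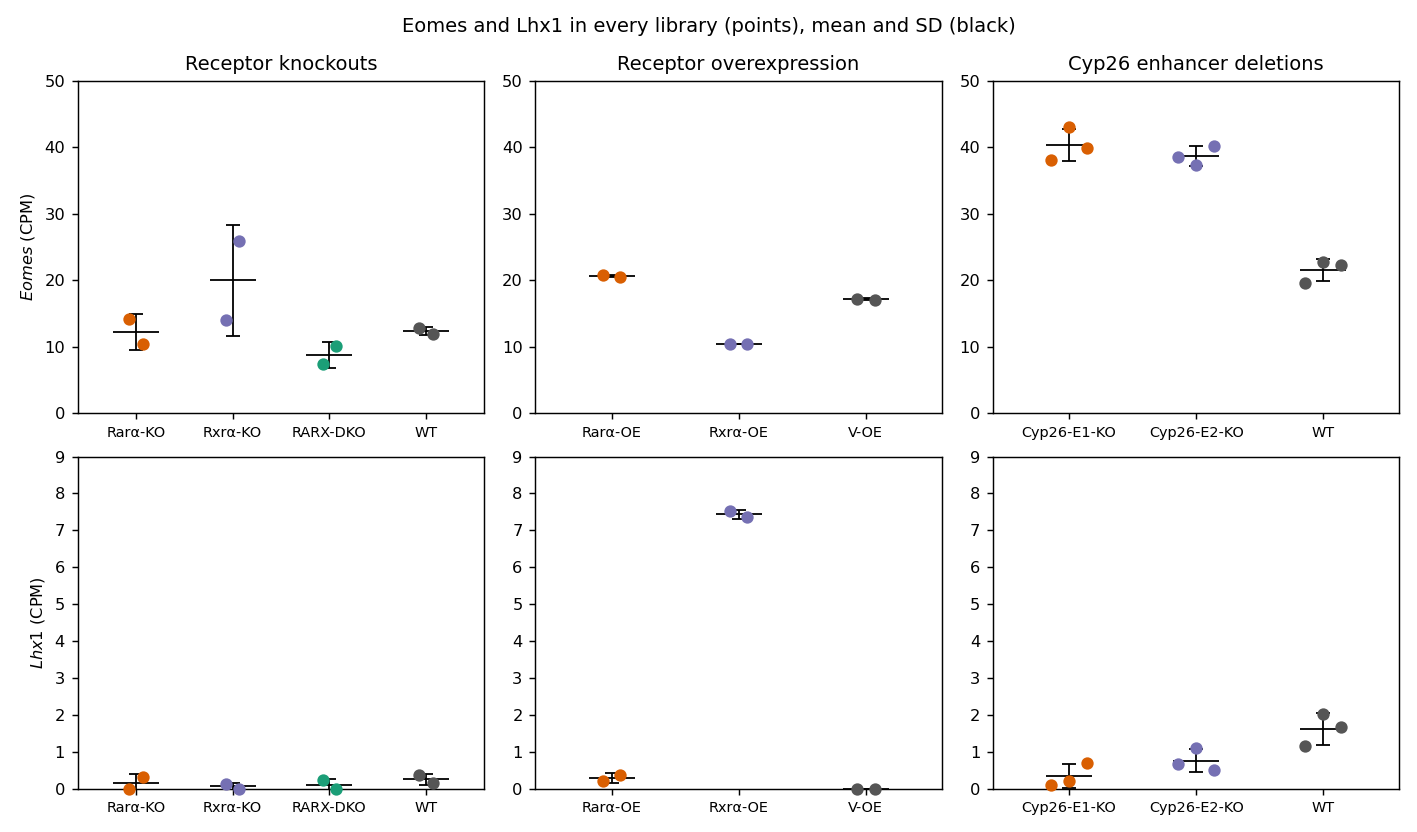
Eomes (top) and Lhx1 (bottom) in CPM in every library of the 3 tables, on linear axes, with 1 point per library and the mean and SD of each group in black. Eomes is near 40 CPM in both enhancer deletions and near 20 CPM in their WT, and Lhx1 is highest in Rxrα-OE.

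In the receptor knockouts Eomes had 14.1 and 10.4 CPM in Rarα-KO, 14.1 and 25.9 CPM in Rxrα-KO and 7.38 and 10.2 CPM in RARX-DKO, against 12.8 and 11.9 CPM in WT. Both Rxrα-KO libraries lay above WT and both RARX-DKO libraries below it, and the Rxrα-KO pair differed widely. Every marker list also summed higher in replicate 2 than in replicate 1 of that pair. Trophoblast markers summed to 56.2 and 124 CPM, fibroblast markers to 7.94 and 14.7 CPM and neuroectoderm markers to 47.9 and 72.2 CPM. Extraembryonic endoderm markers summed to 601 and 662 CPM and stem cell markers to 6514 and 6575 CPM. The part of any of these cells in the spread of Eomes was not tested. No difference from WT passed: the log2 fold changes were -0.012 ± 0.31 in Rarα-KO, 0.69 ± 0.30 in Rxrα-KO and -0.50 ± 0.31 in RARX-DKO (adjusted p = 0.997, 0.275 and 0.529, edgeR quasi-likelihood test). RARX-DKO against Rxrα-KO gave -1.19 ± 0.32 with an adjusted p of 0.0577. That comparison passed with DESeq2 (adjusted p = 0.0183), with no filter on low counts (0.00197) and without Rxrα-KO replicate 1 (-1.55, adjusted p = 0.0172). Without Rxrα-KO replicate 2 it shrank to -0.70 (adjusted p = 0.309).

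The genes whose pattern over the 23 libraries lay closest to that of Eomes were Ifrd1, Arih2 and Six4. The measure was the mean absolute difference in log2 CPM, each gene taken relative to the control of its table, and it was 0.180, 0.185 and 0.195, against a median of 0.492 over 13082 genes. Eomes passed in these data, which the measure also uses, so the likeness is a description. The antisense gene Gm33460 overlaps Eomes by 574 bp, and if the counting did not use strand, reads there were not separated. Its counts were 39 in Rxrα-OE against 65 in V-OE (log2 fold change -0.92 ± 0.35, adjusted p = 0.0218, edgeR quasi-likelihood test), and 58 in Rarα-OE. In the enhancer table they were 69 in Cyp26-E1-KO and 91 without Cyp26-E2, against 51 in WT, and neither passed. In the knockout table they were 50 in Rarα-KO, 87 in Rxrα-KO and 39 in RARX-DKO, against 48 in WT, and none passed. The next gene on the other side, Golga4, had a log2 fold change of 0.19 in Rxrα-OE and 0.14 in Rarα-OE against V-OE, and of 0.16 in both enhancer deletions against WT. Its sign was opposite to that of Eomes in Rxrα-OE and the same in the other 3. Genes within 5 Mb of Eomes had medians of 0.075 in that comparison (91 genes) and -0.088 in Cyp26-E1-KO against WT (110 genes).

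Lhx1, a LIM homeobox gene of the anterior streak and of visceral endoderm (chromosome 11, positions 84518284 to 84525535 on mm10), had no counts in V-OE and was high in Rxrα-OE. It had 65 and 87 counts in Rxrα-OE (7.52 and 7.35 CPM) and 2 and 3 counts in Rarα-OE (0.201 and 0.384 CPM), against 0 and 0 counts in V-OE. The groups did not overlap. With a floor of 3 counts over the V-OE libraries, Lhx1 was at least 44.8-fold higher in Rxrα-OE (adjusted p = 7.48e-15, edgeR quasi-likelihood test) and at least 1.70-fold higher in Rarα-OE (adjusted p = 0.0412). Against Rarα-OE, the log2 fold change in Rxrα-OE was 4.66 ± 0.46 (adjusted p = 1.83e-12). Lhx1 passed the filter in this table only through the Rxrα-OE libraries, so it had to differ there. The call in Rarα-OE rests on 5 counts and was lost with DESeq2 (adjusted p = 0.0936), with no filter (0.0647) and without either V-OE library or Rarα-OE replicate 2 (0.130 to 0.159). With only the Rarα-OE and V-OE libraries in the fit, Lhx1 was under the filter.

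Lhx1os, which starts within the promoter window printed above, had nearly all its counts in the overexpression table in the Rxrα-OE libraries, as Lhx1 did. It had 17 and 22 counts in Rxrα-OE and 1 and 0 in Rarα-OE, against 0 and 0 in V-OE. It too passed the filter only through the Rxrα-OE libraries, so its p carries no information. In the enhancer table it had 6 counts in Cyp26-E1-KO against 4 in WT, where Lhx1 had 29 against 147. The gene on the other side, Aatf, lies 4762 bp from Lhx1. In Rxrα-OE against V-OE it fell by 0.41 ± 0.088 on the log2 scale (adjusted p = 7.19e-05, edgeR quasi-likelihood test). Genes within 5 Mb had a median of -0.044 in Rxrα-OE against V-OE. The extraembryonic endoderm markers that rose with Lhx1 in Rxrα-OE were all 10 of the list, and the same 10 rose in Rarα-OE, where they summed to 1033 to 1046 CPM and Lhx1 had 5 counts in all. The part of such cells in the Lhx1 result was not tested.

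In the enhancer table Lhx1 fell in Cyp26-E1-KO. It had 0.0976, 0.212 and 0.704 CPM in Cyp26-E1-KO (3, 6 and 20 counts) and 0.683, 1.10 and 0.497 CPM without Cyp26-E2, against 1.17, 2.03 and 1.67 CPM in WT (36, 61 and 50 counts). All 3 Cyp26-E1-KO libraries lay below WT, and the fall was -2.26 ± 0.55 on the log2 scale (SE, adjusted p = 0.00758, edgeR quasi-likelihood test). The libraries without Cyp26-E2 also lay below every WT library, and the log2 fold change of -1.10 ± 0.50 did not pass (adjusted p = 0.155), though it did with only those 6 libraries in the fit (adjusted p = 0.0208). Cyp26-E2 against Cyp26-E1 gave 1.16 ± 0.57 (adjusted p = 0.301), so a difference between the deletions was not shown. In the knockout table Lhx1 had 0 to 4 counts per library and was not tested, with 3 counts in Rarα-KO, 1 in Rxrα-KO and 2 in RARX-DKO, against 6 in WT.

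T, the T-box factor that defines nascent mesoderm (chromosome 17, positions 8434423 to 8442496), passed in no comparison. Its nearest approach was Cyp26-E1-KO, with 3.29, 2.44 and 2.22 CPM in Cyp26-E1-KO and 2.3, 2.29 and 2.16 CPM without Cyp26-E2, against 2.11, 1.66 and 1.50 CPM in WT. Neither deletion overlapped WT, and in Cyp26-E1-KO the log2 fold change was 0.59 ± 0.23 (SE, adjusted p = 0.0802, edgeR quasi-likelihood test). Without Cyp26-E2 it was 0.36 ± 0.23 (adjusted p = 0.346). In Rxrα-KO it had 2 and 7 counts, against 16 and 16 in WT (-1.20 ± 0.65, adjusted p = 0.392), and in Rxrα-OE 5 and 11 counts, against 8 and 16 in V-OE (-0.76 ± 0.57, adjusted p = 0.255). T had 17 and 14 counts in Rarα-KO and 7 and 8 in RARX-DKO, against the same WT (0.31 ± 0.54 and -0.52 ± 0.60), and Rxrα-KO against Rarα-KO gave -1.51 ± 0.65 (adjusted p = 0.189). In Rarα-OE T had 13 and 4 counts, which overlapped V-OE (-0.47 ± 0.56). None of these differences passed.

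Tbx6, a T-box factor of paraxial mesoderm (chromosome 7, positions 126781483 to 126785560), passed nowhere. It had 18 and 20 counts in Rarα-KO, 5 and 10 in Rxrα-KO and 12 and 9 in RARX-DKO, against 16 and 9 in WT. In CPM the Rarα-KO pair (1.93 and 2.18) lay above the other knockout groups and WT, but the log2 fold change against WT was 0.94 ± 0.54 (adjusted p = 0.566, edgeR quasi-likelihood test). In the enhancer table it ranged over 0.247 to 1.07 CPM in Cyp26-E1-KO and 0.714 to 0.907 CPM without Cyp26-E2, against 0.567 to 1.60 CPM in WT, and the groups overlapped. In the overexpression table it had 26 and 14 counts in Rarα-OE and 22 and 28 in Rxrα-OE, against 18 and 16 in V-OE. Rxrα-OE lay above V-OE in CPM by a narrow margin (0.37 ± 0.39, adjusted p = 0.422).

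Mixl1, a paired-like homeobox gene that follows Nodal signals in the streak (chromosome 1, positions 180693043 to 180697034), had 4 and 24 counts in Rarα-KO, 2 and 1 in Rxrα-KO and 10 and 6 in RARX-DKO, against 12 and 5 in WT. The Rxrα-KO pair was lowest. Rxrα-KO against Rarα-KO gave a log2 fold change of -2.89 ± 1.05 (SE, adjusted p = 0.123, edgeR quasi-likelihood test), which passed only with no filter (0.0280), and 1 Rarα-KO library holds most of the Rarα-KO counts. Mixl1 passed the filter in the knockout table only through 1 Rarα-KO and 1 RARX-DKO library, where it was high. In the enhancer table Mixl1 had 18 to 28 counts without Cyp26-E2, against 13 to 16 in WT (0.61 ± 0.48, adjusted p = 0.436). Cyp26-E1-KO had 7, 21 and 23 counts and overlapped WT (0.32 ± 0.49). In the overexpression table Mixl1 had 13 and 7 counts in Rarα-OE and 10 and 13 in Rxrα-OE, against 6 and 9 in V-OE (0.43 ± 0.58 and 0.44 ± 0.56), and neither passed. It passed the filter there only through Rxrα-OE.

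Gsc, the homeobox gene of the organizer (chromosome 12, positions 104471209 to 104473330), had few counts and passed in no comparison at the main settings. It had 14 and 3 counts in Rarα-OE and 9 and 31 in Rxrα-OE, against 1 and 14 in V-OE, and the groups overlapped. In Rxrα-OE against V-OE the log2 fold change of 1.21 ± 0.67 did not pass (adjusted p = 0.127, edgeR quasi-likelihood test), and it did without Rxrα-OE replicate 1 (0.0335) or without V-OE replicate 2 (0.00205). In the enhancer table Gsc had 6, 18 and 4 counts in Cyp26-E1-KO and 22, 10 and 10 without Cyp26-E2, against 8, 8 and 4 in WT (0.54 ± 0.69 and 0.97 ± 0.67, neither passing). The counts in Cyp26-E1-KO overlapped those in WT, and all 3 without Cyp26-E2 lay above them. In RARX-DKO Gsc had 1 and 0 counts, against 5 and 7 in WT, so the groups did not overlap. It was under the filter there, and a fit with no filter gave a log2 fold change of -2.78 ± 1.37 (adjusted p = 0.441, edgeR quasi-likelihood test).

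Evx1, a homeobox gene of the posterior streak (chromosome 6, positions 52313498 to 52318378), and Mesp1, a basic helix-loop-helix factor of cardiac mesoderm (chromosome 7, positions 79792241 to 79793788), stayed under the filter. Evx1 had no counts in either Rxrα-OE library and 0 and 1 in Rarα-OE, against 5 and 4 in V-OE. With a floor of 3 counts over the group, that is at least 3.4-fold lower in Rxrα-OE, and a fit with no filter gave an adjusted p of 0.0336 (edgeR quasi-likelihood test). The same fit gave an adjusted p of 0.297 for Rarα-OE against V-OE. Evx1os, which had no counts in Rxrα-OE or V-OE, overlaps Evx1 by 1335 bp on the other strand. The strand setting of the counting is not given, so reads in the overlap may not be separated. Mesp1 had 0 to 4 counts per library in the knockout and overexpression tables and 0 to 14 in the enhancer table.

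In the knockout table none of the 4 tested members passed in any of the 6 comparisons (edgeR quasi-likelihood test). Genes called were 0.645% of 16445 in Rarα-KO, 2.47% in Rxrα-KO and 2.24% in RARX-DKO against WT. Between mutants they were 5.38% for Rxrα-KO against Rarα-KO, 0.0122% for RARX-DKO against Rarα-KO and 3.5% for RARX-DKO against Rxrα-KO. A count of 0 among 4 members is near such shares and says nothing about the members. Without adjustment, p was under 0.05 for 1805, 2638 and 2361 genes in Rarα-KO, Rxrα-KO and RARX-DKO against WT.

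**Figure D3:**
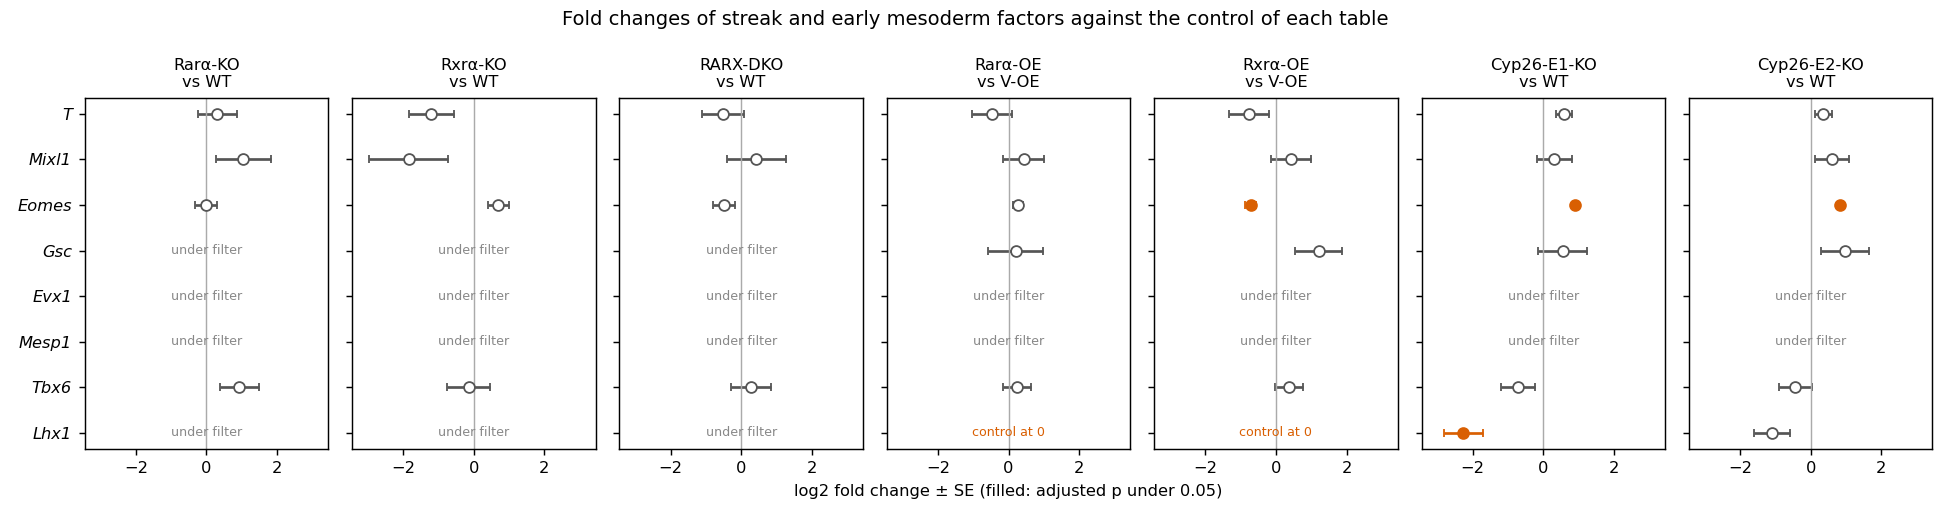
Log2 fold change with its SE (horizontal axis) for each tested member against the control of its table, 1 panel per group, with filled orange points for an adjusted p under 0.05. Eomes is filled in Rxrα-OE (-0.72), Cyp26-E1-KO (0.90) and without Cyp26-E2 (0.84), and Lhx1 in Cyp26-E1-KO (-2.26); its control in the overexpression table is at 0, so no fold is drawn.

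Of the list of 18 streak signals and their readouts, 13 were tested in the overexpression table. In Rxrα-OE against V-OE 5 rose (Axin2, Dkk1, Wnt3, Wnt3a and Wnt8a) and 6 fell (Bmp4, Fgf4, Lefty1, Lefty2, Nodal and Tdgf1). Wnt3 passed the filter only through the Rxrα-OE libraries, so it had to differ. The share of all genes called in this comparison was 60.2%, and 11 of the 13 signals passed. The risers are ligands and feedback targets of the Wnt pathway, and among those that fell Nodal, its co-receptor gene Tdgf1 and its inhibitors Lefty1 and Lefty2 belong to the Nodal pathway. The median log2 fold change of the list was -1.21, against 0.0041 over all tested genes.

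Wnt3a had 21.9 and 22.3 CPM in Rxrα-OE and 3.42 and 3.08 CPM in Rarα-OE, against 2.66 and 2.45 CPM in V-OE. It rose by 3.11 ± 0.21 on the log2 scale in Rxrα-OE (SE, adjusted p = 2.50e-19, edgeR quasi-likelihood test). Nodal had 36.4 and 38.9 CPM in Rxrα-OE and 88.3 and 82.1 CPM in Rarα-OE, against 113 and 99.9 CPM in V-OE. It fell by 1.49 in Rxrα-OE (adjusted p = 8.96e-24) and fell by 0.32 in Rarα-OE (adjusted p = 0.000449). Fgf4, which stem cells make, fell by 3.87 in Rxrα-OE and Lefty2 fell by 2.59. Rarα-OE gave 3 rises (Axin2, Dkk1 and Wnt8a) and 4 falls (Bmp4, Fgf4, Nodal and Tdgf1), or 7 of 13 where 28.6% of all genes passed, with a list median of 0.25. Fgf8, a ligand of the streak, averaged 0.979 CPM in Rarα-OE and 0.474 CPM in Rxrα-OE, against 1.03 CPM in V-OE, and passed in neither.

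Of the 18 signals, 17 were tested in the enhancer libraries. Cyp26-E1-KO gave 5 rises (Axin2, Bmp4, Foxh1, Nodal and Fgf4) and 4 falls (Wnt8a, Tdgf1, Lefty1 and Lefty2), and the list's median was 0.32, against -0.0082 over all genes. Without Cyp26-E2 there were 5 rises (Bmp4, Lef1, Fgf5, Nodal and Fgf4) and 3 falls (Tdgf1, Lefty1 and Lefty2), with a median of 0.36 against 0.00011. Those are 9 and 8 of 17, where 25.3% and 17.5% of all genes passed. Wnt3 averaged 0.376 CPM in Cyp26-E1-KO and 0.403 CPM without Cyp26-E2, against 0.430 CPM in WT, and Fgf8 0.461 and 0.525 CPM, against 0.221 CPM in WT, and neither gene passed. Nodal had 110, 80.5 and 111 CPM in Cyp26-E1-KO and 101, 84.7 and 91.7 CPM without Cyp26-E2, against 61.1, 55.4 and 61.8 CPM in WT. All 6 deletion libraries lay above WT, as they did for Eomes (log2 fold changes of Nodal 0.76 ± 0.11 and 0.64 ± 0.11).

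Lefty2, an inhibitor of Nodal and one of its direct targets, went the other way. It had 2.96, 3.43 and 2.71 CPM in Cyp26-E1-KO and 36.2, 30.7 and 35.5 CPM without Cyp26-E2, against 72.0, 72.9 and 75.9 CPM in WT. The 3 groups did not overlap. The log2 fold change was -4.60 ± 0.11 in Cyp26-E1-KO (adjusted p = 7.72e-12, edgeR quasi-likelihood test) and -1.11 ± 0.090 without Cyp26-E2 (adjusted p = 2.52e-06). Lefty2 was also higher without Cyp26-E2 than in Cyp26-E1-KO (3.49 ± 0.11, adjusted p = 2.81e-10).

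In the receptor knockouts 11 of the 18 signals were tested. Of all genes 0.645% passed in Rarα-KO, 2.47% in Rxrα-KO and 2.24% in RARX-DKO. Nodal rose in Rxrα-KO (1.03 ± 0.17, adjusted p = 0.00856, edgeR quasi-likelihood test) and in RARX-DKO (0.91 ± 0.17, adjusted p = 0.0150), with 77.2 and 103 CPM and 77.6 and 88.4 CPM, against 48.6 and 39.5 CPM in WT. Rarα-KO had 81.3 and 73.3 CPM, also above WT, but Nodal did not pass there (adjusted p = 0.0554), nor did any of the list. The 63 tested genes within 5 Mb of Nodal on chromosome 10 had median log2 fold changes of 0.67 in Rarα-KO, 0.54 in Rxrα-KO and 0.69 in RARX-DKO against WT, so the genes around Nodal were higher as well, and the part of this region in the Nodal result was not tested. The same medians were 0.18 in Cyp26-E1-KO, 0.20 without Cyp26-E2 and 0.10 in Rxrα-OE against their controls. Bmp4 (1.45 ± 0.23) and Axin2 (1.09 ± 0.23) rose in Rxrα-KO as well, and the list's medians were -0.34 in Rarα-KO, 0.73 in Rxrα-KO and 0.034 in RARX-DKO.

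The knockout counts of this list changed when single libraries were left out. The 3 rises in Rxrα-KO became 1 without WT replicate 1 or Rxrα-KO replicate 2 and 0 without WT replicate 2, and 6 genes passed with no filter and 5 with only the groups compared. The 1 rise in RARX-DKO became 0 without either WT replicate, and 2 and 3 genes passed without RARX-DKO replicates 1 and 2. In Rarα-KO 3 of the list passed with DESeq2, 4 with no filter and 1 with library totals only.

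**Figure D4:**
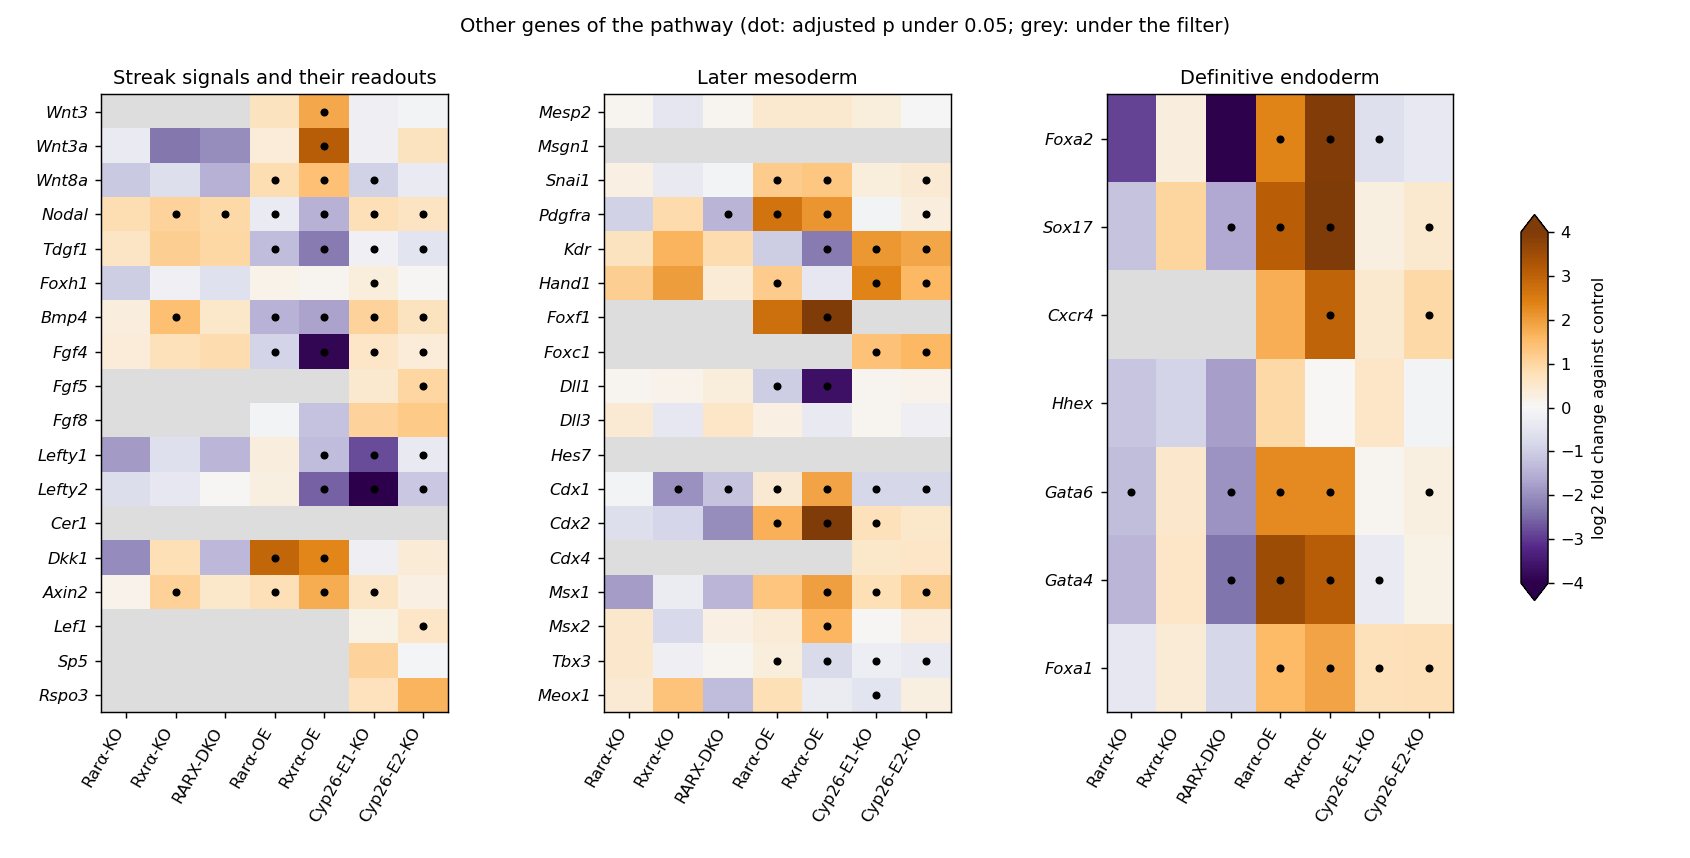
Log2 fold change against the control of the same table (colour, capped at 4 in either direction) for streak signals, later mesoderm genes and definitive endoderm genes in 7 groups. Dots mark an adjusted p under 0.05 and grey marks genes under the filter. Nodal has a dot as raised in both enhancer deletions, Rxrα-KO and RARX-DKO, and as lowered in Rxrα-OE and Rarα-OE. The definitive endoderm panel is mostly raised in the overexpression groups.

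Of 18 genes of later mesoderm, 14 were tested in the overexpression table. In Rxrα-OE 7 rose (Cdx1, Cdx2, Foxf1, Msx1, Msx2, Pdgfra and Snai1) and 3 fell (Dll1, Kdr and Tbx3), with a median of 0.89. That is 10 of 14, near the 60.2% of all genes called. Foxf1 and Msx1 passed the filter only through the Rxrα-OE libraries and Kdr only through V-OE, where each was high, so these 3 had to differ. Cdx2, a caudal homeobox gene that trophoblast shares, had 17.9 and 16.1 CPM in Rxrα-OE and 1.71 and 2.43 CPM in Rarα-OE, against 0.846 and 0.408 CPM in V-OE (4.77 ± 0.30 in Rxrα-OE, adjusted p = 4.39e-20, edgeR quasi-likelihood test). Rarα-OE gave 6 rises (Cdx1, Cdx2, Hand1, Pdgfra, Snai1 and Tbx3) and 1 fall (Dll1), against 28.6% of all genes called, and Hand1 passed the filter only through Rarα-OE. Mesp2, the paralogue of Mesp1, had 4.40 and 4.06 CPM in Rxrα-OE and 3.92 and 4.49 CPM in Rarα-OE, against 3.14 and 2.86 CPM in V-OE, and did not pass.

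Of the 18 later genes, 15 were tested in the enhancer libraries. Cyp26-E1-KO gave 5 rises (Cdx2, Hand1, Msx1, Foxc1 and Kdr) and 3 falls (Meox1, Tbx3 and Cdx1), and the Cyp26-E2 deletion gave 6 rises (Pdgfra, Hand1, Snai1, Msx1, Foxc1 and Kdr) and 2 falls (Tbx3 and Cdx1), which is 8 of 15 in each, against 25.3% and 17.5% of all genes. Kdr, a receptor of lateral mesoderm and endothelium, had 10.7, 12.1 and 12.8 CPM in Cyp26-E1-KO and 10.0, 11.1 and 9.62 CPM without Cyp26-E2, against 3.01, 2.76 and 2.70 CPM in WT. It rose by 2.07 ± 0.14 and 1.85 ± 0.14 on the log2 scale (adjusted p = 1.89e-07 and 1.25e-06). Hand1, which trophoblast shares, rose by 2.35 ± 0.19 and 1.59 ± 0.19. Cdx1, a target of RA and of Wnt signals, fell by 0.83 and 0.84. In the knockouts 13 were tested, and Cdx1 fell in Rxrα-KO (-1.96 ± 0.19) and RARX-DKO (-1.17 ± 0.18), where Pdgfra fell too (-1.43 ± 0.27). Of all genes 2.47% passed in Rxrα-KO and 2.24% in RARX-DKO. Without either WT replicate neither call in RARX-DKO remained. In the Cyp26-E2 deletion 5 of this list passed, 3 up and 2 down, without WT replicate 2 or without Cyp26-E2 replicate 3. In Rxrα-KO 3 genes passed without Rxrα-KO replicate 1.

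All 7 definitive endoderm genes were tested in the overexpression table, and all but Hhex rose in Rxrα-OE (Foxa2, Sox17, Cxcr4, Gata6, Gata4 and Foxa1), while 5 rose in Rarα-OE (Foxa1, Foxa2, Gata4, Gata6 and Sox17). Of all genes 30.9% rose in Rxrα-OE and 14.7% in Rarα-OE. Cxcr4 passed the filter only through Rxrα-OE, so it had to differ there. Of these genes 4 are also in the list of extraembryonic endoderm markers (Foxa2, Sox17, Gata6 and Gata4). Foxa2, which the anterior streak shares with Gsc and Lhx1, had 7.98 and 7.86 CPM in Rxrα-OE and 2.91 and 2.31 CPM in Rarα-OE, against 0.604 and 0.408 CPM in V-OE. It rose by 3.95 ± 0.39 in Rxrα-OE (adjusted p = 5.23e-13, edgeR quasi-likelihood test). In Cyp26-E1-KO Foxa2 fell with Lhx1, with 4.52, 4.31 and 5.14 CPM, against 7.36, 5.92 and 7.88 CPM in WT (-0.60 ± 0.17, adjusted p = 0.0190), and Gata4 fell as Foxa1 rose. Without WT replicate 1 a single gene of the list passed, as a rise. Without Cyp26-E2 4 rose (Gata6, Sox17, Foxa1 and Cxcr4), where 9.28% of all genes did. In Cyp26-E1-KO 13.1% of all genes rose and 12.1% fell.

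In the receptor knockouts 6 of these endoderm genes were tested. RARX-DKO gave 3 falls (Gata4, Gata6 and Sox17) with a list median of -1.85, and Rarα-KO gave 1 fall (Gata6) with a median of -1.21. No gene of the list passed in Rxrα-KO, with a median of 0.45. Of all genes 2.24% passed in RARX-DKO, 0.645% in Rarα-KO and 2.47% in Rxrα-KO. Gata6, a factor of extraembryonic and definitive endoderm, averaged 21.3 CPM in Rarα-KO, 72.7 CPM in Rxrα-KO and 13.4 CPM in RARX-DKO, against 50.9 CPM in WT. Its log2 fold change was -1.25 ± 0.17 in Rarα-KO (adjusted p = 0.00963, edgeR quasi-likelihood test) and -1.93 ± 0.18 in RARX-DKO (adjusted p = 0.000139). In Rarα-KO the call was lost without Rarα-KO replicate 1 and without either WT replicate, and in RARX-DKO 1 gene of the list passed without WT replicate 2. Foxa2 averaged 0.267 CPM in Rarα-KO and 0.125 CPM in RARX-DKO, against 2.12 CPM in WT, and passed in neither. The extraembryonic endoderm markers, which hold Gata6, Gata4, Sox17 and Foxa2, summed to 384 to 415 CPM in Rarα-KO, 601 to 662 CPM in Rxrα-KO and 378 to 410 CPM in RARX-DKO, against 421 to 449 CPM in WT. By gene the shift was larger than in these sums: in RARX-DKO 6 of 10 markers fell (Cubn, Dab2, Gata4, Gata6, Lama1 and Sox17) with a median log2 fold change of -1.66, and in Rarα-KO 1 fell with a median of -1.05. Stem cell markers summed to 6752 to 8134 CPM in Rarα-KO, 6514 to 6575 CPM in Rxrα-KO and 7091 to 7700 CPM in RARX-DKO, against 5612 to 5742 CPM in WT. Nanog rose in Rarα-KO, Sox2, Utf1 and Zfp42 in Rxrα-KO, and Sox2 and Zfp42 in RARX-DKO. Neuroectoderm markers summed to 60.5 to 66.1 CPM in Rarα-KO, 47.9 to 72.2 CPM in Rxrα-KO and 69.6 to 96.0 CPM in RARX-DKO, against 42.7 to 48.1 CPM in WT, and Tubb3 rose in RARX-DKO. Trophoblast markers summed to 80.7 to 88.7 CPM in Rarα-KO, 56.2 to 124 CPM in Rxrα-KO and 61.0 to 83.3 CPM in RARX-DKO, against 92.3 to 101 CPM in WT. The part of such cells in the knockout results was not tested.

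Between the knockouts, Rxrα-KO had 4 endoderm genes higher than Rarα-KO (Foxa2, Gata4, Gata6 and Sox17). These 4 were lower in RARX-DKO than in Rxrα-KO, and the comparisons share the Rxrα-KO libraries. They called 5.38% and 3.5% of all genes, and 6 endoderm genes, 11 signals and 13 later mesoderm genes were tested. Without Rarα-KO replicate 2, 1 endoderm gene passed in Rxrα-KO against Rarα-KO. Of the signals Axin2, Bmp4 and Dkk1 were higher in Rxrα-KO than in Rarα-KO, where Dkk1 passed the filter only through Rxrα-KO. That count fell to 1 without Rarα-KO replicate 1 or Rxrα-KO replicate 2 and to 0 without Rarα-KO replicate 2. Bmp4 was lower in RARX-DKO than in Rxrα-KO, a call lost without Rxrα-KO replicate 1, Rxrα-KO replicate 2 or RARX-DKO replicate 1, under either other scaling, with the replicate block and with only the groups compared. Without RARX-DKO replicate 2 the count was 2. Of the later mesoderm genes Pdgfra was higher and Cdx1 and Msx2 lower in Rxrα-KO than in Rarα-KO. Cdx1 was higher and Pdgfra lower in RARX-DKO than in Rxrα-KO, where 1 gene passed without RARX-DKO replicate 1 or Rxrα-KO replicate 2. In RARX-DKO against Rarα-KO no listed gene passed (edgeR quasi-likelihood test), and 563 of all genes had an unadjusted p under 0.05.

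Between the overexpression groups, Rxrα-OE had Axin2, Wnt3a and Wnt8a higher than Rarα-OE and Fgf4, Lefty1, Lefty2, Nodal and Tdgf1 lower. In that comparison 47.2% of all genes passed, and 8 of 13 tested signals, 9 of 14 later mesoderm genes and 4 of 7 endoderm genes did. Of later mesoderm, Cdx1, Cdx2, Foxf1 and Msx2 were higher in Rxrα-OE and Dll1, Hand1, Meox1, Pdgfra and Tbx3 lower, where Foxf1 and Hand1 had to differ since each passed the filter only through the group where it is high. Of endoderm genes Cxcr4, Foxa2 and Sox17 were higher in Rxrα-OE and Gata4 lower, and Cxcr4 again had to differ. Without Rxrα-OE replicate 1, 2 endoderm genes passed in place of 4. Between the enhancer deletions, Wnt8a, Dkk1, Lefty1 and Lefty2 were higher without Cyp26-E2 than in Cyp26-E1-KO and Axin2, Bmp4 and Tdgf1 lower. Here 4.49% of all genes passed, and 7 of 17 tested signals, 3 of 15 later mesoderm genes and 1 of 7 endoderm genes did. When any 1 of the 3 Cyp26-E2 libraries was left out, 3 signals passed in place of 7. Meox1, Pdgfra and Gata4 were higher without Cyp26-E2 than in Cyp26-E1-KO and Hand1 lower, and 2 endoderm genes passed without Cyp26-E1-KO replicate 2.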

How the data were processed

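The authors deposited raw read counts per gene in 3 tables, with no normalization. Per the submitters' processing notes the build was mm10 and the tools included HISAT2 2.1.0, HTSeq 0.9.1 and DESeq2 1.18.1; the setting for strand is not given in the sources used here. The tables held no column without a sample (0) and no row without a gene (0). ChIP-seq was not analysed here, and 4C-seq only to match the column codes of the enhancer table.

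Each table was fitted on its own, all groups together, with edgeR 4.0.16 (R 4.3.3): filterByExpr at a minimum count of 10, TMM scaling, the robust quasi-likelihood test and Benjamini-Hochberg adjustment over all tested genes, with a threshold of 0.05. Every adjusted p in the text comes from this test unless another is named. CPM use library sizes after TMM scaling, and ± is the SE for fold changes and the SD for levels. Where a group had no counts, the fold was set against a floor of 3 counts over the group, which covers counting error only. The alternatives were DESeq2 1.42.0, no filter, library totals in place of TMM, TMM outside chromosomes 2, 6, 8, 10, 16 and Y, only the groups compared, a replicate block and leaving out each library. Gene positions and exon lengths came from GENCODE vM21, matched to 47982 genes of the knockout and overexpression tables and 52403 of the enhancer table. Promoters came from RefSeq.

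The members and the gene lists were chosen with earlier results of these data known. The rule for names took all members, any listed gene that passed, and Nodal, Wnt3, Fgf8, Mesp2, Cdx1 and Foxa2 also where they did not pass. Which of the passing listed genes are given in full was decided after their values were seen.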

Additional observations from a re-analysis of the deposited data

How the results depend on the processing

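Of the 8 member calls, the 4 of Eomes and that of Lhx1 in Cyp26-E1-KO kept their direction and their call under every alternative run, leaving out single libraries included. The log2 fold change of Eomes stayed within 0.84 to 0.95 in Cyp26-E1-KO, 0.78 to 0.89 without Cyp26-E2 and -0.73 to -0.62 in Rxrα-OE, and that of Lhx1 within -3.37 to -1.81 in Cyp26-E1-KO. Both calls of Lhx1 in Rxrα-OE were fixed by the filter, so their alternatives say nothing about stability. Lhx1 in Rarα-OE kept its call under 4 of 9 alternatives. Member values were compared where the member was tested in both the main fit and the alternative. Of these, 590 kept their direction and call, 22 changed sign without a call on either side, 8 newly passed and 5 lost their call. Members under the filter in either fit, such as Evx1, are not in these counts. The cause of the changes was not tested.

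Counts of genes called moved more. With DESeq2 they were 269 in Rarα-KO (106 in the main analysis), 654 in Rxrα-KO (407), 582 in RARX-DKO (368), 19 in RARX-DKO against Rarα-KO (2), 2766 in Rarα-OE (4829) and 1357 between the enhancer deletions (842). With no filter they were 551, 1084 and 981 in the 3 knockouts, 1840 in Rxrα-KO against Rarα-KO (885), 58 in RARX-DKO against Rarα-KO, 1366 in RARX-DKO against Rxrα-KO (575) and 1384 between the deletions. With only the groups compared they were 588 in Rarα-KO, 0 in RARX-DKO against Rarα-KO, 30 in RARX-DKO against Rxrα-KO, 5731 without Cyp26-E2 (3280) and 339 between the deletions. With library totals only, 1 gene passed in RARX-DKO against Rarα-KO. The uncalled difference of Eomes in Rarα-KO turned positive with DESeq2 (0.00031), library totals (0.026) and only the groups compared (0.012).

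Leaving out 1 library gave 8 to 29 calls in Rarα-KO, 21 to 361 in Rxrα-KO and 32 to 408 in RARX-DKO. It gave 111 to 648 in Rxrα-KO against Rarα-KO, 3 to 47 in RARX-DKO against Rarα-KO and 174 to 879 in RARX-DKO against Rxrα-KO. It gave 1978 to 2220 without Cyp26-E2 and 310 to 1852 between the deletions. Uncalled log2 fold changes that changed sign were those of Mixl1 (-0.75 to 1.95) and Eomes (-0.25 to 0.19) in Rarα-KO, Tbx6 in Rxrα-KO (-0.69 to 0.47), and Mixl1 (-0.16 to 1.34) and Tbx6 (-0.18 to 0.91) in RARX-DKO. Others were Mixl1 in RARX-DKO against Rarα-KO (-1.40 to 1.17) and, in Rarα-OE, Gsc (-1.06 to 2.83) and Tbx6 (-0.070 to 0.47). In Rxrα-OE against Rarα-OE they were T (-0.75 to 0.58), Mixl1 (-0.22 to 0.32) and Tbx6 (-0.098 to 0.44). In the enhancer libraries they were Gsc in Cyp26-E1-KO (-0.37 to 0.90) and, between the deletions, Mixl1 (-0.097 to 0.59), Gsc (-0.048 to 1.36) and Tbx6 (-0.099 to 0.79).

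With the replicate number as a block the calls were 86 in Rarα-KO, 314 in Rxrα-KO and 296 in RARX-DKO, 4559 in Rarα-OE and 10005 in Rxrα-OE, and 4769 in Cyp26-E1-KO and 3289 without Cyp26-E2, and no call of a member changed. The labels give same-numbered libraries a shared number and do not say whether they shared a culture or batch. Correlations of their deviations from group means ran from -0.21 to 0.12 in the knockouts. They ran from -0.014 to 0.0066 in the overexpression libraries and -0.056 to 0.11 in the enhancer libraries. Such values cannot show whether the libraries had a shared origin. The SE of a log2 fold change was 0.086 to 0.32 for Eomes and 0.23 to 1.70 for the other members, which had fewer counts.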
